A study of Mus musculus with 12 samples.

Results

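The comparison described here sets Dux-deficient mouse embryonic stem cells against wild-type cells after both were given doxorubicin, a topoisomerase poison that breaks DNA. It uses 4 of the 12 libraries of the series, chosen by their labels: 2 of wild-type E14 cells and 2 of E14 cells labelled Dux KO, each exposed to 1 uM doxorubicin for 6 h and then moved to medium without the drug. E14 is an established line of mouse embryonic stem cells, and the cultures were kept on gelatin with serum, LIF and both inhibitors of the 2i medium, PD0325901 (against MEK) and CHIR99021 (against GSK3). The other libraries are the vehicle (DMSO) cultures of the same genotypes and p53 KO cells under both treatments, and RNA was selected by its poly(A) tail in all of them. Both wild-type libraries, called a and b, carry 1 line name, whereas the Dux KO libraries come from 2 numbered knockout lines, called line 1 and line 2. Differences between E14 lines that have nothing to do with Dux therefore cannot be told apart from the loss of Dux. The submitters describe biological duplicates without naming separate cultures, so p-values measure only the spread between libraries of a group. That spread was estimated jointly over the 11 libraries of 6 groups fitted together, not over the 4 compared libraries alone. How long after the drug the cells were collected was not given in the sources used here.

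Dux is a transcription factor with a pair of homeodomains that is made for a short time when the mouse embryo first switches on its own genome. It binds and activates genes of the 2-cell stage, many of which sit in large families of near-identical copies (Zscan4, Usp17l, Tdpoz, Tcstv, Obox and the Pramel relatives). A few cells in an ordinary stem cell culture enter a like state. p53, encoded by Trp53, is the transcription factor that DNA breaks stabilise, and its targets stop the cell cycle, start cell death and feed back on p53 itself. The comparison asks which part of the doxorubicin response of these cells is seen with Dux and not without it.

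The libraries hold 29055471 and 30493264 counts in wild type and 50796507 and 51481793 in Dux KO, so the knockout is the more deeply sequenced side. Levels are given as CPM (counts scaled to a common library size after TMM adjustment), first for wild-type libraries a and b, then for Dux KO lines 1 and 2. They are not divided by gene length, so genes are compared across libraries and not with each other. The authors' FPKM values are scaled by whole gene spans including introns, and whether intron reads were counted was not tested. Whether strand was used is not given in the sources used here, so a gene that overlaps another may share its reads. Wild-type library b stands apart in that 6.556% of its counts lie in annotated rRNA-containing loci, against 0.8035%, 0.5054% and 0.6249% in wild-type a, Dux KO line 1 and Dux KO line 2. The count column labelled as vehicle Dux KO line 2 equals that of treated Dux KO line 1 in 54532 of 54532 genes and was left out, so vehicle Dux KO is 1 library here; results without treated line 1 are given where they change a call. Over genes with a mean of at least 1 CPM, the median size of the difference was 0.15 (log2) between the wild-type libraries and 0.154 between the knockout lines. The stem cell markers fixed for this check, Pou5f1, Nanog, Sox2, Esrrb, Zfp42, Utf1, Tdgf1 and Dppa5a, were present in all 4 libraries, at 10.6 CPM or more, which matches the labelled cell type.

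The targeted gene had no counts in the knockout. Duxf3, the annotated Dux gene (chromosome 10, 58229979 to 58232675, minus strand, GRCm38), had 21.6 and 22.8 CPM in wild type and 0 counts in both knockout lines, at least 398-fold lower. Such lower bounds set a group with no counts at 3 counts per library. The 4 other genes beside it in the array, AW822073, Gm10807, Gm4981 and Gm19459, were read together with it: they had 19.2 and 19.5, 6.95 and 6.88, 2.57 and 3.16, and 1.96 and 2.56 CPM in wild type and 0 counts in both lines. Vehicle wild type was also at or near 0, with 0.0777 and 0 CPM of Duxf3 and 0 and 0.0748 of Gm19459. AW822073, Gm10807 and Gm4981 had 0 in both vehicle wild-type libraries. Whether the array was lost or was not switched on in the knockout was not tested. Genes flanking the array had counts in both lines: Gcc2 had 29.1 and 31.5 CPM against 27.9 and 25.7, and Lims1 had 85.6 and 93.5 against 79.6 and 83.9, neither called (adjusted p = 0.32 and 0.49, edgeR). All genes within 200 kb of Duxf3 were looked at here, after their values were seen. Trp53 itself was not called, with 135 and 133 CPM in wild type and 135 and 136 in Dux KO (log2 difference 0.02 ± 0.35, adjusted p = 0.97).

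The promoters below are those of strongly lower genes from 4 chromosomes. They are shown because each holds the 9-letter core GATTNNATC of the Dux recognition sequence, or its reverse complement GATNNAATC, which is in capitals. Each runs 5′ to 3′ along its gene, from 250 bases before to 50 bases after the start site (RefSeq, GRCm38.p6). Zscan4c lies on the plus strand at chr7:11005495-11005794, Sp110 on the minus strand at chr1:85603842-85604141, AF067061 on the plus strand at chr13:120262845-120263144 and Abcb5 on the minus strand at chr12:118966372-118966671.
Zscan4c: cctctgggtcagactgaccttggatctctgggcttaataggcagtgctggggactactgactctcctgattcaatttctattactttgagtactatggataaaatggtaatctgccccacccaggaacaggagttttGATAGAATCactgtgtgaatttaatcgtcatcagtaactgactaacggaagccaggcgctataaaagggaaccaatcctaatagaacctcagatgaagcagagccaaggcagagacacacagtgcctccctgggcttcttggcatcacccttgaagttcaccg
Sp110: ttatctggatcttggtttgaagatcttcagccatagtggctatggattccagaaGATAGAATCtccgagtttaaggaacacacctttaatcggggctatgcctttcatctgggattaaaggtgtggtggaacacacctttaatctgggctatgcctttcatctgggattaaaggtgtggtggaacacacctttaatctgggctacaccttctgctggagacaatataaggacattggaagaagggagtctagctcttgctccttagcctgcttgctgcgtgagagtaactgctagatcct
AF067061: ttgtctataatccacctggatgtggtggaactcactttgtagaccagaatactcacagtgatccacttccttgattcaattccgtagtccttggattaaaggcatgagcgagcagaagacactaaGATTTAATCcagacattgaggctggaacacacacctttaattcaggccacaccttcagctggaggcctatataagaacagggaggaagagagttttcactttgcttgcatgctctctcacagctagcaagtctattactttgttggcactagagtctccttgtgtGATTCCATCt
Abcb5: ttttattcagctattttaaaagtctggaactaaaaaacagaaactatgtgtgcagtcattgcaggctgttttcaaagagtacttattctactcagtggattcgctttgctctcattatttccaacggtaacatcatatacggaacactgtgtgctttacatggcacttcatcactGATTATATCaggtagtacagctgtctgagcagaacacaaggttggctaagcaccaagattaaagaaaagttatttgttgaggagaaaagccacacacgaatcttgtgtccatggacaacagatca
The match starts 113 bases before the start site in Zscan4c, 196 in Sp110, 125 in AF067061 (which has another 40 bases after it) and 75 in Abcb5. Searched on both strands, with a stretch that fits both orientations counted once, the core was found in 226 of the 16138 tested genes that have a RefSeq promoter (1.4%). Among genes at least 8-fold lower in Dux KO it was found in 38 of 656 (5.79%), and among those at least 32-fold lower in 28 of 263 (10.6%). Both counts include Duxf3, the targeted gene itself. Those 28 lie at only 17 places more than 1 Mb apart, because near-identical copies share a promoter, so they are not 28 separate cases. The 17 places are not all separate cases either. The stretch around the match in Sp110 recurs with few changes in Gm12790 (chromosome 4), Gm33248 (chromosome 7), Gm4340 (chromosome 10), Gm35974 (chromosome 16) and Esp24 (chromosome 17). Among genes called higher in Dux KO, 37 of 2499 (1.48%) hold it. A match describes letters in a window of 300 bases and is not a measured binding site.

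Loss of Dux went with a wide and lopsided difference between the treated cells. Of 28643 genes tested with edgeR's quasi-likelihood test, 4162 (14.5%) were lower in Dux KO and 4456 (15.6%) were higher at a Benjamini-Hochberg adjusted p under 0.05. At least 2-fold, 3283 were lower and 2632 higher. At least 8-fold, 1441 were lower (5.03% of genes tested) and 126 higher, and at least 32-fold, 655 were lower (2.29%) and 1 higher (Aldoart1), with a group under 3 counts per library set at that floor. The libraries of the groups did not overlap in any of the 8618 called genes, but they also did not overlap in 22330 of all 28643 genes tested, so with 2 libraries a group this says little by itself. Which direction holds more genes is not settled. The higher share of calls is 51.7% with TMM scaling and 43.5% with RLE scaling, which shifts the median of all genes by -0.103 (log2). With limma on the authors' log2(FPKM + 1) the share is 71.7% over 14522 genes of at least 1 FPKM in 2 libraries (median 0.188). Without that filter the share is 53.8% over 41964 genes. Leaving out 1 of the 4 libraries lowered the counts to between 1680 (without wild-type library b) and 2490 (without wild-type library a) lower genes, and between 2044 (without Dux KO line 1) and 2620 (without Dux KO line 2) higher genes.

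**Figure D1:**
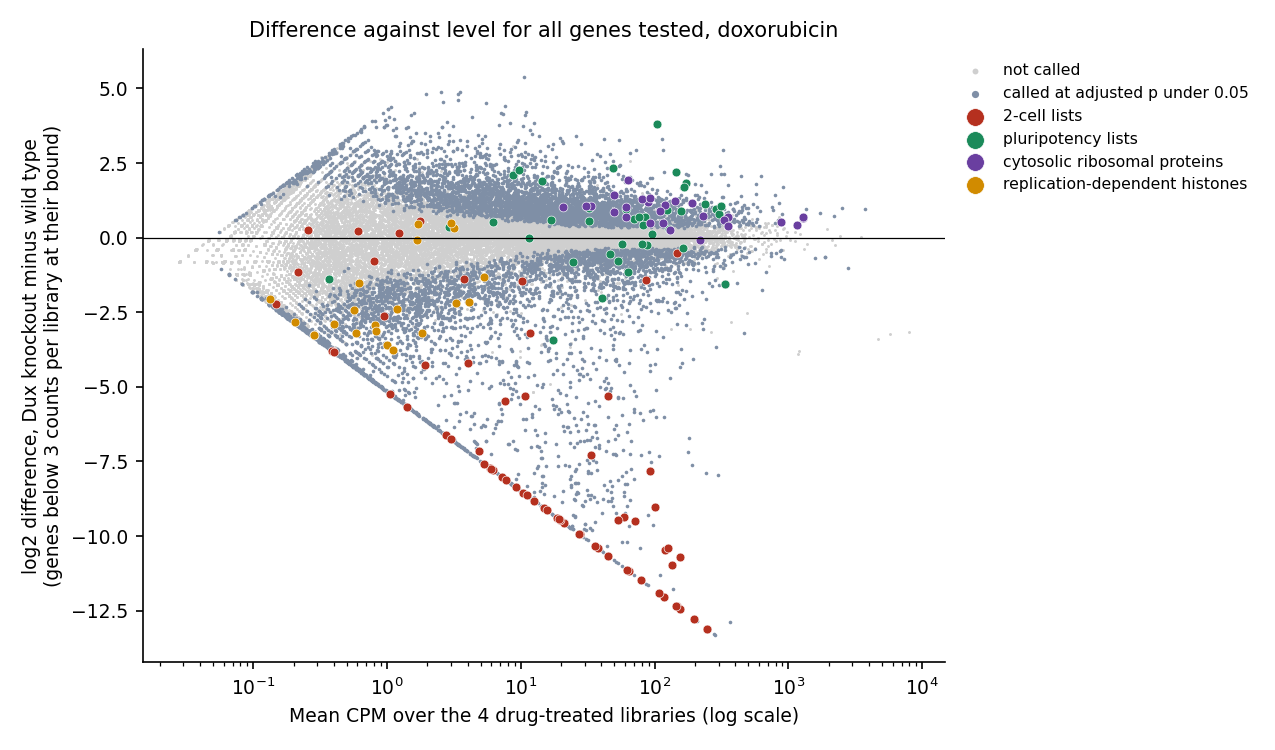
Log2 difference (Dux KO minus wild type, y axis) against the mean CPM of the 4 drug-treated libraries (x axis, log scale), 1 point per gene, for 28349 of the 28643 genes tested. Genes under 3 counts per library in 1 group are drawn at their bound, which forms the straight lower edge, and 294 genes under that floor in both groups are left out. The 2-cell lists (red) fill the lower arm, and the pluripotency lists (green) and cytosolic ribosomal proteins (purple) lie mostly above 0.

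The 2-cell gene families were nearly absent from treated Dux KO cells. Of 46 tested members of a list of such families, 43 were lower and 0 higher, against the 14.5% lower among all genes, and 25 of them had no counts in either knockout line. The list's median difference was -11.12 (log2), or -9.10 with genes that have no counts set at their bound, beside a median of 0 over all genes. Summed over the list, wild type had 4418 and 5291 CPM and Dux KO 7.04 and 8.57. Under vehicle the same sum was 39.9 and 43.6 in wild type and 16.7 in the 1 Dux KO library, so the treated knockout lay below even untreated wild-type cells. Copies within a family are so alike that the split of reads among them is uncertain, and the sum is firmer than any single copy. In bulk RNA, fewer cells in a 2-cell-like state and less RNA per such cell cannot be told apart.

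Zscan4c, a zinc finger and SCAN domain protein that marks the 2-cell-like state and is tied to telomere upkeep, had 449 and 543 CPM in wild type and 0 counts in both Dux KO lines, at least 8917-fold lower. Zscan4d had 359 and 427 CPM and 0, at least 7070.4-fold lower. The cluster's other copies behaved alike, Zscan4f, Zscan4e, Zscan4a and Zscan4b all being at 0 in both lines. Zscan4-ps2 and Zscan4-ps3, protein-coding in the annotation despite their names, kept 2 counts each in line 1 and 0 in line 2, and were lower by 30097-fold (95% counting interval 8331 to 248530.0) and 22146-fold (95% counting interval 6129.9 to 182870.0). The groups did not overlap in these genes, as in every called gene, and line 2 did not differ from line 1 by more than 2 counts. The 10 protein-coding genes with the lowest Dux KO share outside overlapping genes were 6 copies of this cluster and the 4 copies Gm4340, Gm21304, Gm21312 and Gm20765. Those 4 had between 262 and 332 CPM in wild type and 0 counts in the knockout, at least 5113-fold lower.

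Among the other families, Usp17le, a deubiquitinating enzyme, had 241 and 297 CPM in wild type against 0.0377 and 0.218 in Dux KO (log2 difference -10.98 ± 0.73, adjusted p = 3.2e-05). Its copies Usp17lb, Usp17lc and Usp17ld had 0 counts in both lines. Gm5662, a relative of the translation initiation factor Eif1a, had 229 and 278 CPM against 0.0377 and 0.328 (log2 difference -10.39 ± 0.88, adjusted p = 7.6e-05). In both of these the knockout lines differed from each other, line 2 holding more than line 1, yet both lay far under wild type. Tdpoz4, of a speckle-type POZ family, had 24.3 and 35.4 CPM against 0, at least 537-fold lower. Tcstv3, of a family named for the 2-cell stage, went from a wild-type mean of 31.1 CPM to 0, at least 560.0-fold. Obox1, a homeobox gene of the oocyte and early embryo, had 170.3 and 199 CPM against 0.585 and 1.02 (log2 difference -7.84 ± 0.50, adjusted p = 3.1e-05), but 9 other genes overlap it. AF067061, whose promoter is printed above, had 83.5 and 96.8 CPM against 0, at least 1621-fold lower. The 3 members that missed the threshold were Trim43b, Trim43c and Obox6. Trim43c had 1.48 and 1.36 CPM in wild type and 2.79 and 1.38 in Dux KO (adjusted p = 0.33), and Trim43b was no higher than 1 CPM in any of the 4 libraries.

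Most genes on a list of 2-cell markers outside the large families above were also lower. Of 22 tested, 15 were lower (68.2%, beside 14.5% over all genes) and 0 higher, with a median of -5.30 (log2). Zfp352, a zinc finger gene, had 65.4 and 85.999 CPM in wild type and 0 counts in both lines, at least 1361-fold lower. Gm6763, which lies on chromosome 10 in a run with the copies Gm4340, Gm21304 and Gm21312 and may share reads with them, had 268 and 310.2 CPM and 0, at least 5195-fold lower. Tmem92, a membrane protein, had 139 and 144 CPM against 0.208 and 0.182 (log2 difference -9.48 ± 0.97, adjusted p = 2.0e-04), and the transporter Abcb5 had 89.5 and 123 against 0.113 and 0.182 (log2 difference -9.45 ± 0.92, adjusted p = 1.5e-04). These 4 genes were under 1 CPM in every knockout library and above 50 in every wild-type one. Arg2, the mitochondrial arginase, had 58.8 and 75.1 CPM in wild type and 0.453 and 0.4 in Dux KO (log2 difference -7.28 ± 0.45, adjusted p = 2.8e-05). Sp110, a nuclear body protein, kept a trace of 1.79 and 2.60 CPM in the knockout against 77.8 and 96.9 in wild type (log2 difference -5.31 ± 0.51, adjusted p = 1.4e-04).

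A smaller step was seen for genes that stem cells also express without the drug. Fbxo15, an F-box gene, had 473 and 519 CPM in wild type and 166 and 176 in Dux KO (log2 difference -1.54 ± 0.13, adjusted p = 8.1e-05). Calcoco2, an autophagy receptor, had 118 and 134 CPM against 35.1 and 59.8 (log2 difference -1.41 ± 0.22, adjusted p = 0.0017). Its vehicle values were 134 and 128 in wild type and 53.7 in Dux KO (vehicle log2 difference -1.29, adjusted p = 0.067). Zfp809, a repressor of retroviral elements and the most abundant member that was not called, had 165 and 181 CPM against 135 and 109.8 (adjusted p = 0.14). Without 1 library at a time, 40 to 41 of the family members and 15 of the 22 other markers were called lower.

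**Figure D2:**
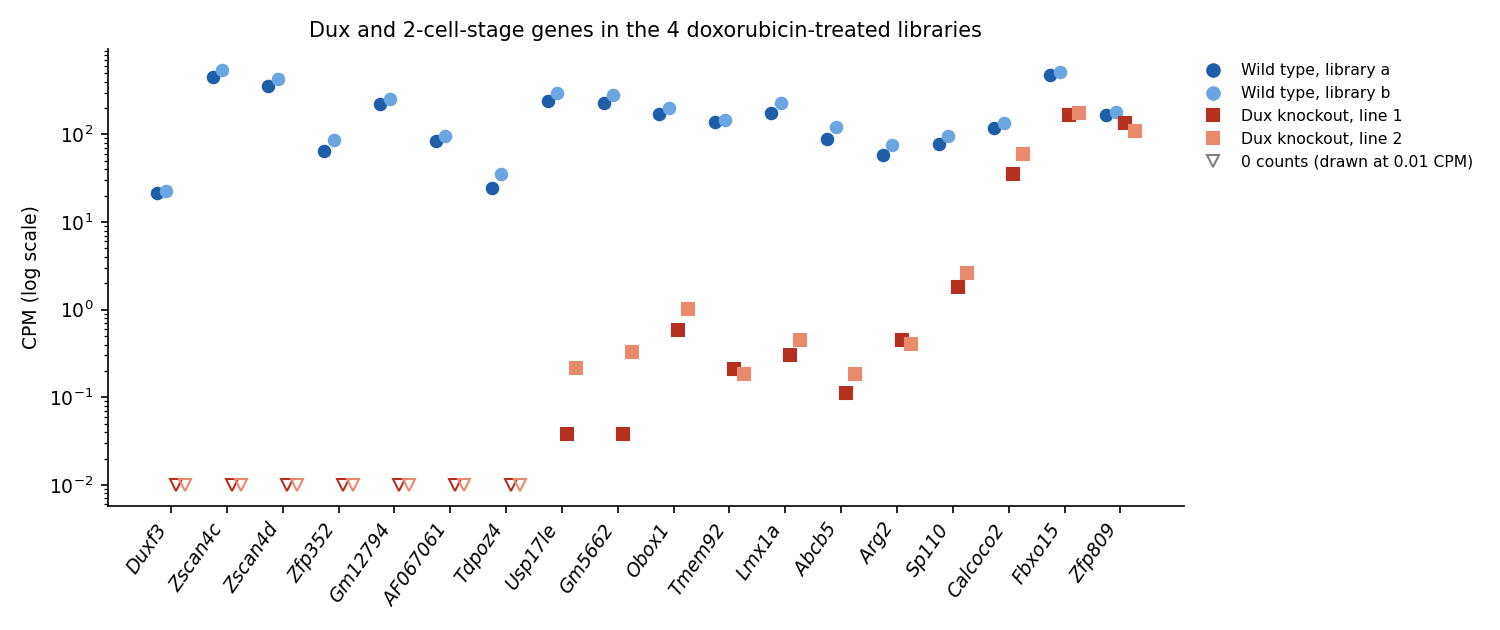
CPM (log axis) of Dux and 17 genes of the 2-cell stage in the 4 doxorubicin-treated libraries, 1 symbol per library, with open triangles at 0.01 for libraries with 0 counts. The 7 genes on the left have no counts in either Dux KO line, those in the middle keep about 1 CPM or less except Sp110, which keeps up to 2.60 CPM, and Calcoco2, Fbxo15 and Zfp809 on the right differ least.

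Part of the strongly lower genes lie in runs along the chromosomes. How all tested genes would join by the same rule was not tested. Joined where they are less than 1 Mb apart, the 654 placed genes at least 32-fold lower form 302 runs, of which 202 are 1 gene and 10 hold 10 genes or more. Those 10 runs hold 176 of the 654. The longest in genes is on chromosome 12 (87021340 to 89255361, GRCm38), where 28 of 70 tested genes were at least 32-fold lower, led by Gm2016, Gm5662 and Gm8300. On chromosome 5 (93481829 to 95746617) 25 of 33 were, led by AA792892, and on chromosome 3 (93014205 to 94266784) 24 of 38 were, with Tdpoz4 among them. The Zscan4 run on chromosome 7 (9241087 to 11614112) held 14 of 29 and the largest sum of all, 3508 CPM in wild type and 0.2602 in Dux KO. On chromosome 10 (104142987 to 104196522) 7 of 7 tested genes were at least 32-fold lower, with a wild-type sum of 2305 CPM and none in the knockout. The runs were laid out after the values were seen, and reads of near-identical copies can be counted for more than 1 of them.

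In the fit of 11 libraries, targets of p53 were called no more often than other genes. Over 4 lists of p53 targets, 5 of 56 tested genes were lower and 8 higher in Dux KO, shares of 8.93% and 14.3% beside the 14.5% and 15.6% over all genes, with a median of 0.12 (log2). Their summed level was 9669 and 9662 CPM in treated wild type and 9409 and 9222 in treated Dux KO, against 4283 and 4316 in vehicle wild type and 4025 in vehicle Dux KO, so treated Dux KO line 1, whose column is shared with a vehicle label, lies with the treated libraries. Cdkn1a, the p21 inhibitor of cell cycle kinases, had 188 and 186 CPM against 214 and 200.5 (log2 difference 0.15 ± 0.23, adjusted p = 0.66). Ccng1 had 1067 and 1051 against 1024 and 967 (adjusted p = 0.93). The values of both lay close together across all 4 libraries. With the 4 drug-treated libraries fitted alone, more targets were called, as were more of all genes (7263 lower and 7023 higher of 26179). Lower and higher were 2 and 2 of 7 feedback genes and 6 and 2 of 13 arrest genes. In the death list they were 3 and 6 of 16, and in the metabolism and repair list 2 and 11 of 20. The opening statement thus holds for the joint fit only.

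Mdm2, the ubiquitin ligase that degrades p53, was lower in Dux KO, at 949.9 and 947 CPM in wild type and 629.6 and 685 in the knockout (log2 difference -0.53 ± 0.15, adjusted p = 0.025). Its relative Mdm4, which blocks p53 activity, was higher, at 224 and 223 against 487 and 389 (log2 difference 0.97 ± 0.15, adjusted p = 0.0016). Among the arrest genes Gadd45g, a stress sensor, had 15.2 and 17.3 against 2.34 and 2.99 (log2 difference -2.61 ± 0.52, adjusted p = 0.0062), and Sfn, the 14-3-3 sigma protein, had 64.8 and 73.6 against 27.1 and 35.3 (log2 difference -1.15 ± 0.32, adjusted p = 0.027). Plk2, a kinase that p53 induces, had 495 and 565 against 242 and 247 and was not called (adjusted p = 0.11). Tigar, which lowers glycolytic flux, had 154 and 172 against 52.4 and 53.1 (log2 difference -1.63 ± 0.34, adjusted p = 0.0079), while Gls2, the liver-type glutaminase, had 23.4 and 21.04 against 47.99 and 47.7 (log2 difference 1.11 ± 0.14, adjusted p = 5.0e-04) and the repair factor Ddb2 had 15.3 and 14.2 against 31.3 and 31.1 (adjusted p = 0.0083). The p53 death list had 0 genes lower and 1 higher of 16 (Ei24, log2 difference 0.45 ± 0.12, adjusted p = 0.025). Mdm2, Sfn and Ei24 lost their calls with each of the 4 libraries left out. Their log2 differences were then -0.596 to -0.462, -1.36 to -0.976 and 0.399 to 0.519. Tigar lost its call without Dux KO line 1, without line 2 and without wild-type library b (-1.62, -1.64 and -1.48). Gadd45g (-2.45) and Ddb2 (1.07) lost theirs without Dux KO line 1. Ei24 also missed the threshold with DESeq2 (adjusted p = 0.0675) and with RLE scaling (0.0532).

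Many pluripotency genes were higher in the treated knockout. Of 24 naive pluripotency genes 12 were higher and 1 lower (Fbxo15), and of 15 core genes 8 were higher and 3 lower (Sall4, Lin28a and Dppa2), with medians of 0.58 and 0.94 (log2). The shares higher were 50% and 53.3%, beside 15.6% over all genes, and the shares lower 4.17% and 20%, beside 14.5%. Pou5f1, which encodes OCT4, had 156 and 145 CPM in wild type and 358 and 295 in Dux KO (log2 difference 1.12 ± 0.13, adjusted p = 4.4e-04). Sox2, its partner factor, had 79.6 and 71.98 against 284 and 255 (log2 difference 1.83 ± 0.21, adjusted p = 3.7e-04). Both knockout lines lay above both wild-type libraries, just as the groups were apart in every called gene. All 4 treated libraries lay below the vehicle cultures, where Pou5f1 had 899 and 929 CPM in wild type and 818 in Dux KO and Sox2 had 358 and 319.6 and 344. The naive list was already higher under vehicle, with a sum of 5534 and 5488 CPM in wild type and 6629 in the 1 Dux KO library. The core list was not, with 4257 and 4252 against 4166. Under doxorubicin, Nanog had 222 and 163 against 359.5 and 394 (log2 difference 0.97 ± 0.24, adjusted p = 0.017) and Esrrb, a nuclear receptor of the naive state, 87.996 and 68.6 against 269 and 235 (log2 difference 1.68 ± 0.15, adjusted p = 1.0e-04). Klf4 had 63.2 and 65.9 against 100.4 and 109 (log2 difference 0.70 ± 0.19, adjusted p = 0.025). Nanog lost its call without Dux KO line 1, without line 2 and without wild-type library b (log2 differences 1.03, 0.896 and 0.832). Klf4 lost its call with each of the 4 libraries left out (log2 differences 0.634 to 0.798).

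The widest gaps in these lists were at other members. Tdgf1, the Nodal co-receptor also called Cripto, had 15.7 and 12.2 CPM in wild type against 239 and 149.5 in Dux KO (log2 difference 3.80 ± 0.26, adjusted p = 3.3e-05). Fgf4, the growth factor that drives exit from the naive state, had 18.2 and 14.4 against 92.5 and 71.2 (log2 difference 2.33 ± 0.17, adjusted p = 4.1e-05). Tcl1, a cofactor of AKT, had 4.31 and 2.26 against 16.9 and 15.1 (log2 difference 2.28 ± 0.32, adjusted p = 9.7e-04). Prdm14, a regulator of the naive and germ cell state, had 6.82 and 5.42 against 23.4 and 22.01 (log2 difference 1.89 ± 0.20, adjusted p = 2.2e-04), and Spp1, osteopontin, had 53.5 and 49.9 against 280.4 and 198 (log2 difference 2.21 ± 0.22, adjusted p = 1.7e-04). In each of these, as in every called gene, the groups did not overlap, and line 1 was the higher of the knockout lines.

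Not all of the network followed. Lin28a, an RNA-binding protein that blocks let-7 maturation, was lower, at 26.6 and 37.02 CPM against 2.53 and 3.42 (log2 difference -3.42 ± 0.24, adjusted p = 3.6e-05). Its vehicle values were 107 and 90.2 in wild type and 32.3 in Dux KO. Dppa2, which helps to switch on Dux itself, had 61.8 and 66.8 against 15.9 and 15.7 (log2 difference -2.02 ± 0.21, adjusted p = 2.0e-04), with 23.3 and 22.4 and 23.4 under vehicle. Zfp42 and Utf1 did not pass, at 90.5 and 93.2 against 95.4 and 102 CPM and 10.6 and 12.6 against 11.9 and 10.99 (adjusted p = 0.82 and 0.93). Klf5, the most abundant uncalled naive gene, had 159 and 202 against 127 and 159.8 (adjusted p = 0.42). Leaving out 1 library gave 5 to 7 naive and 5 to 7 core genes higher, with 5 naive and 5 core without Dux KO line 1, 7 and 6 without line 2, 7 and 7 without wild-type library a, and 6 and 6 without wild-type library b.

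**Figure D3:**
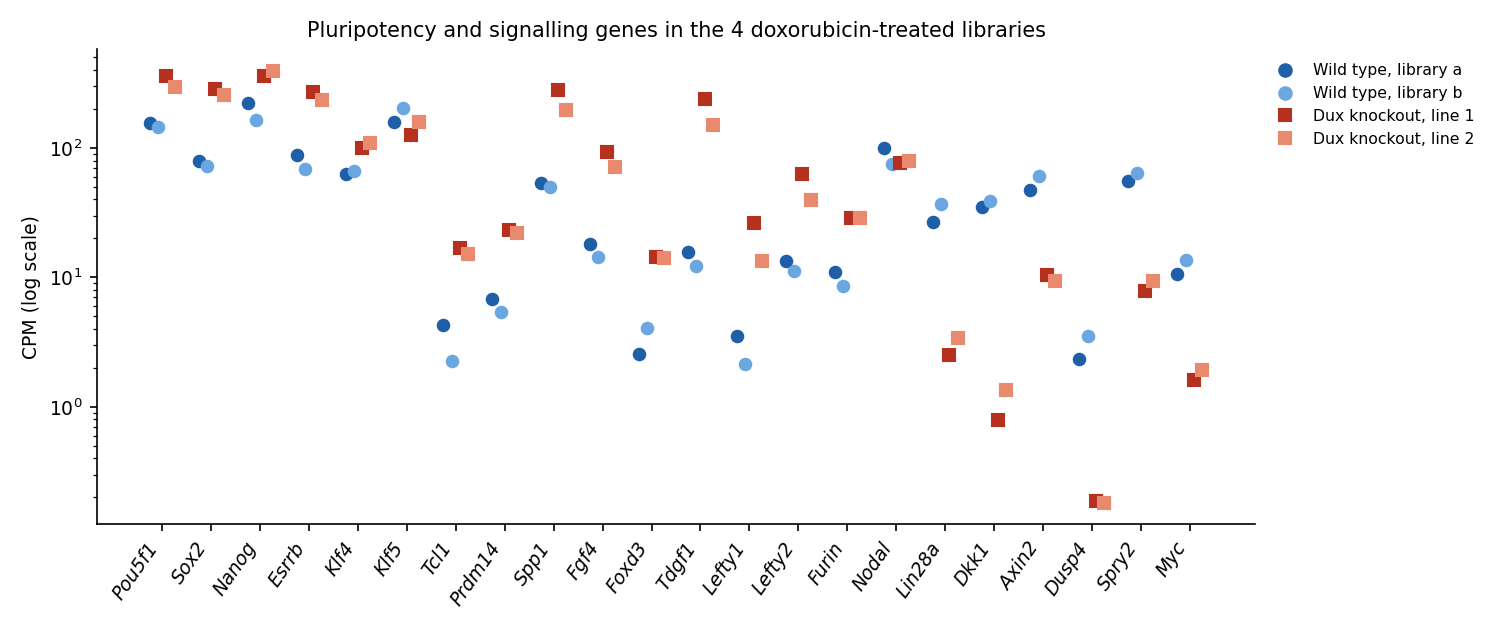
CPM (log axis) of 22 pluripotency and signalling genes in the 4 doxorubicin-treated libraries, 1 symbol per library. Dux KO (squares) lies above wild type (circles) from Pou5f1 to Furin except at Klf5, overlaps it at Klf5 and Nodal, and lies below it from Lin28a to Myc.

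Nodal signalling, a TGF-beta branch that stem cells keep switched on themselves, also had more genes higher than lower. Of 18 tested pathway genes 9 were higher and 1 lower (Acvr2a, an activin receptor), with a median of 0.65 (log2). Those shares are 50% and 5.56%, beside 15.6% and 14.5% over all genes. The ligand gene Nodal had 99.6 and 75.3 CPM against 76.1 and 79.04, which overlap (adjusted p = 0.66). The feedback inhibitors Lefty1 and Lefty2, both induced by the pathway, had 3.51 and 2.16 against 26.4 and 13.4 (log2 difference 2.81 ± 0.50, adjusted p = 0.0035) and 13.4 and 11.2 against 62.6 and 39.4 (log2 difference 2.05 ± 0.45, adjusted p = 0.0092). Furin, a protease that matures the ligand, had 11.004 and 8.64 against 28.6 and 28.98 (log2 difference 1.55 ± 0.20, adjusted p = 6.8e-04). The call of Lefty2 was lost without Dux KO line 1, without wild-type library a and without wild-type library b (log2 differences 1.67, 2.18 and 1.99). The list had 5 genes higher without Dux KO line 1, without wild-type library a or without wild-type library b, and 7 without line 2. Under vehicle Lefty1 had 10.1 and 10.1 CPM in wild type and 23.9 in Dux KO. The whole list summed to 1050 and 1116 CPM in vehicle wild type and 1465 in the 1 vehicle Dux KO library.

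Wnt and FGF genes gave mixed counts with a few wide gaps. Of 24 Wnt genes 5 were lower and 2 higher, shares of 20.8% and 8.33% beside the 14.5% and 15.6% over all genes. Dkk1, a secreted Wnt inhibitor, had 35.1 and 38.9 CPM in wild type and 0.793 and 1.35 in Dux KO (log2 difference -5.11 ± 0.33, adjusted p = 3.1e-05). Axin2, a feedback gene that reports Wnt activity, had 47.5 and 60.9 against 10.4 and 9.32 (log2 difference -2.46 ± 0.23, adjusted p = 1.2e-04). The receptor gene Fzd7 went the other way, 6.31 and 8.27 against 28.6 and 24.8 (log2 difference 1.87 ± 0.39, adjusted p = 0.0073). The ligand genes were less separated: Wnt8a had 19.5 and 17.7 against 3.13 and 4.55 (log2 difference -2.27 ± 0.54, adjusted p = 0.013), and Wnt3 had 49.4 and 42.3 against 30.2 and 37.5 and was not called (adjusted p = 0.39).

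Of 19 FGF and ERK genes 7 were lower and 4 higher, in cells kept with a MEK inhibitor. These are shares of 36.8% and 21.1%, beside 14.5% and 15.6% over all genes. The ERK phosphatase gene Dusp4 had 2.35 and 3.52 CPM against 0.189 and 0.182 (log2 difference -3.96 ± 0.40, adjusted p = 2.0e-04), and the feedback inhibitor Spry2 had 55.3 and 63.7 against 7.81 and 9.32 (log2 difference -2.80 ± 0.71, adjusted p = 0.018). Myc, the growth regulator, had 10.7 and 13.6 against 1.62 and 1.93 (log2 difference -2.77 ± 0.57, adjusted p = 0.007). Both lines were under both wild-type libraries in all 3, just as the groups were apart in every called gene. Leaving out 1 library left 2 to 3 Wnt genes and 2 to 6 FGF and ERK genes lower, the fewest without Dux KO line 2 or wild-type library b for Wnt and without Dux KO line 1 for FGF and ERK. Wnt8a and Spry2 lost their calls with each of the 4 libraries left out (log2 differences -2.57 to -2.03 and -2.93 to -2.62). Myc lost its call without Dux KO line 1 and without line 2 (-2.65 and -2.9), and Fzd7 without wild-type library a (1.68).

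The machinery of protein synthesis split in opposite directions. Of 27 cytosolic ribosomal protein genes 19 were higher (70.4%, beside 15.6% over all genes) and 0 lower in Dux KO. Their median was 0.87 (log2), and their summed level was 6291 and 5557 CPM in wild type against 9618 and 8906. Vehicle cultures summed to 10682 and 11665 and 10881. Rps23 had 30.4 and 23.1 CPM against 78.8 and 64.5 (log2 difference 1.42 ± 0.16, adjusted p = 3.9e-04) and Rpl26 had 53.8 and 40.1 against 125 and 103 (log2 difference 1.28 ± 0.26, adjusted p = 0.0062), the latter missing the threshold without Dux KO line 1 (adjusted p = 0.053). Rps2, with the highest level of those not called, had 253 and 362 against 388 and 409 (adjusted p = 0.13). These genes have many processed pseudogenes with which they can share reads. The direction held under each scaling tried, with 18 to 24 genes higher and 0 lower, and with 13 to 17 higher when 1 library was left out.

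Factors that build ribosomes went the other way. Of 22 ribosome biogenesis genes 10 were lower (45.5%, beside 14.5% over all genes) and 1 higher (Fbl, fibrillarin), with a median of -0.32 (log2). Nop56, a core protein of box C/D particles, had 185 and 198 CPM against 106 and 113 (log2 difference -0.80 ± 0.21, adjusted p = 0.021), Gnl3, nucleostemin, had 149.7 and 148 against 96.5 and 99.98 (log2 difference -0.60 ± 0.14, adjusted p = 0.012), and Polr1a, the largest subunit of RNA polymerase I, had 269.6 and 288 against 180.4 and 199 (log2 difference -0.55 ± 0.16, adjusted p = 0.028). Npm1, nucleophosmin, had 286 and 273 against 311 and 305 (adjusted p = 0.59) and Ubtf, the rRNA gene transcription factor, 67.6 and 68.3 against 75.6 and 79.9 (adjusted p = 0.18). These differences are small, and leaving out 1 library left 0 to 2 of the 22 lower, 2 without Dux KO line 1, 1 without line 2, 2 without wild-type library a and 0 without wild-type library b. No gene of the list was called higher with DESeq2, with RLE scaling or with any of the 4 libraries left out. Nop56, Gnl3 and Polr1a lost their calls with each of the 4 libraries left out (adjusted p up to 0.12, 0.091 and 0.17).

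Replication-dependent histone genes, whose messages normally lack a poly(A) tail, were lower in Dux KO at low levels. Of 21 tested 14 were lower (66.7%, beside 14.5% over all genes) and 0 higher, with a median of -2.51 (log2). The list summed to 37.1 and 53.6 CPM in wild type and 21.9 and 15.1 in Dux KO. Hist1h4a had 1.61 and 2.53 CPM against 0.113 and 0.182 (log2 difference -3.77 ± 0.66, adjusted p = 0.0033) and Hist1h4d had 1.42 and 2.26 against 0.189 and 0.109 (log2 difference -3.60 ± 0.51, adjusted p = 0.0011). Hist1h1c, the most abundant member not called, had 5.86 and 9.20 against 4.19 and 1.86 (adjusted p = 0.059). The library with the highest sum, wild-type b, is also the one with 6.556% of counts in rRNA-containing loci, and the part of carried-over RNA without a poly(A) tail in this result was not tested. Without wild-type library b, 6 of 20 were lower and the median was -1.985; without Dux KO line 1 or line 2, 7 were lower, and without wild-type library a, 11.

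**Figure D4:**
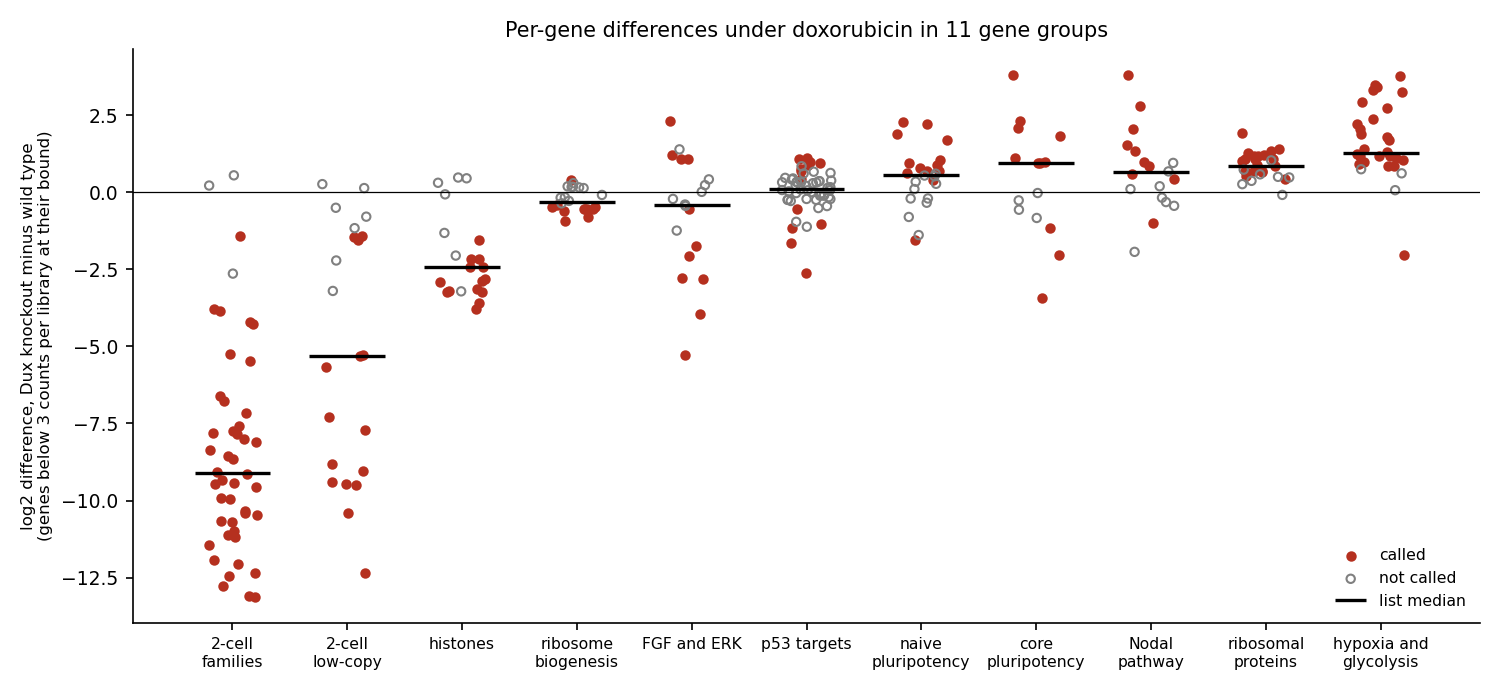
Log2 difference (Dux KO minus wild type) of each tested gene in 11 groups, red where called, open where not, with a bar at each group's median. The 2-cell families and histones lie below 0 with few exceptions, p53 targets scatter around 0, and ribosomal protein and hypoxia and glycolysis genes lie above it with few exceptions.

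Cell cycle and repair genes were called about as often as other genes. Of 30 G1/S genes 2 were lower and 6 higher, of 24 G2/M genes 3 and 3, of 20 homologous recombination and Fanconi genes 2 and 4, and of 20 end joining and checkpoint genes 0 and 4, shares of 0% to 12.5% lower and 12.5% to 20% higher beside the 14.5% and 15.6% over all genes. Leaving out 1 library left 1 to 3 G1/S genes higher (1 without Dux KO line 1 or wild-type library b, 2 without line 2), 0 to 2 G2/M genes lower (0 without line 2 or wild-type library b) and 1 to 3 end joining and checkpoint genes higher (1 without line 1). Cdk1, the mitotic kinase, had 152 and 146 CPM against 153 and 154 (log2 difference 0.05 ± 0.14, adjusted p = 0.83), and Xrcc5, the KU80 subunit, had 63.1 and 62.5 against 87.9 and 86.2 (adjusted p = 0.072). Among those called, Ccne2, cyclin E2, had 40.6 and 41.9 against 21.02 and 19.9 (log2 difference -1.01 ± 0.20, adjusted p = 0.0059) and Aurkb, the mitotic kinase Aurora B, had 56.05 and 46.99 against 103 and 102 (log2 difference 0.99 ± 0.14, adjusted p = 0.0013). Mdc1, which binds marked chromatin at breaks, had 100.2 and 95.9 against 226 and 205 (log2 difference 1.14 ± 0.12, adjusted p = 2.1e-04). Parp1 had 263 and 259.9 against 249 and 259.6 (adjusted p = 0.85).

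Stress and death lists held single genes with clear gaps, to be read beside the 14.5% of all genes lower and 15.6% higher. Of 17 stress and immediate early genes 5 were lower and 1 higher: Atf3, a stress-induced factor, had 58.1 and 57.02 CPM against 11.3 and 19.4 (log2 difference -1.90 ± 0.32, adjusted p = 0.0027) and Klf6 had 143 and 166 against 52.2 and 54.7 (log2 difference -1.53 ± 0.19, adjusted p = 6.2e-04). Of 16 ATF4 targets 5 were lower and 2 higher, with Phgdh, which opens serine synthesis, at 21.5 and 21.1 against 4.34 and 7.61 (log2 difference -1.83 ± 0.23, adjusted p = 6.3e-04). Of 22 BCL2 family and caspase genes 2 were lower and 5 higher. The survival factor gene Bcl2l2 had 10.1 and 7.98 against 37.2 and 31.5 (log2 difference 1.92 ± 0.19, adjusted p = 1.6e-04) and the killer gene Bak1 had 11.004 and 11.8 against 35.4 and 34.01 (log2 difference 1.61 ± 0.19, adjusted p = 3.9e-04). Mcl1, the most abundant one that was not called, had 565 and 622 against 771 and 748 (adjusted p = 0.19). Of 23 interferon and RNA sensing genes 3 were lower and 3 higher (13.04% each), and 1 and 1 with any of the 4 libraries left out, with Ddx58, the RNA sensor RIG-I, at 14.5 and 13.8 against 4.11 and 3.09 (log2 difference -1.97 ± 0.20, adjusted p = 1.7e-04). Leaving out 1 library left 2 to 4 stress genes and 2 to 4 ATF4 targets lower, the fewest without wild-type library b in both and also without Dux KO line 1 or line 2 respectively.

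Regulators known to act on Dux were spread over both directions. Of 24 tested, 4 were lower and 6 higher (16.7% and 25%, beside 14.5% and 15.6% over all genes), with a median of 0.02 (log2). With DESeq2 and with RLE scaling 5 were lower and 2 higher, so which direction holds more of them depends on the scaling. Leaving out any of the 4 libraries left 3 lower and 1 higher. Beside Lin28a and Dppa2, Rif1, which binds late-replicating chromatin, was lower at 231 and 268 CPM against 133 and 139.8 (log2 difference -0.87 ± 0.15, adjusted p = 0.0027). Ehmt2, the G9a histone methyltransferase, was higher at 41.8 and 36.6 against 87.3 and 99.2 (log2 difference 1.25 ± 0.13, adjusted p = 2.1e-04). Trim28, the corepressor that silences retroviral elements, had 382 and 397 against 369 and 406 (adjusted p = 0.98). Of 14 DNA methylation genes 2 were lower and 5 higher, the latter falling to 0 to 1 with 1 library left out (0 without Dux KO line 1). Dnmt3l, a cofactor of new methylation, had 95.9 and 104 against 21.4 and 49.04 (log2 difference -1.50 ± 0.33, adjusted p = 0.0094), with the lines apart from each other and a vehicle value of 43.2 in Dux KO against 178 and 166 in wild type. The call of Dnmt3l was lost without wild-type library b (adjusted p = 0.067).

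Markers of other cell types were read as a check on what the cultures hold. Of 21 trophectoderm genes 9 were lower and 1 higher (42.9% and 4.76%, beside 14.5% and 15.6% over all genes), with a median of -1.71 (log2). The list's defining gene Cdx2, however, was at 0.45 and 0.93 CPM in wild type and 0.0377 and 0.109 in Dux KO. Krt18, a keratin, had 36.1 and 55.6 against 5.40 and 8.96 (log2 difference -2.67 ± 0.62, adjusted p = 0.012), and Rhox5, an X-linked homeobox gene, had 20.4 and 18.7 against 1.36 and 4.26 (log2 difference -2.80 ± 0.46, adjusted p = 0.0025), where the vehicle values were 56.5 and 63.8 and 2.14. Leaving out 1 library left 3 to 8 of the trophectoderm genes lower, 3 without Dux KO line 1 and 3 without wild-type library b, and Krt18 was not called without Dux KO line 1 (adjusted p = 0.105) or wild-type library b (0.078).

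Of 17 primitive endoderm genes 4 were lower and 2 higher, among them Hnf4a, a liver and endoderm receptor, at 45.5 and 60.4 CPM against 5.62 and 5.24 (log2 difference -3.28 ± 0.51, adjusted p = 0.0017) and Sox17 at 1.74 and 2.86 against 0.34 and 0.291 (log2 difference -2.85 ± 0.49, adjusted p = 0.0031). With limma on filtered FPKM 3 genes of this list were left, 0 of them lower. Without the filter, limma on log2(FPKM + 1) tested 17, with 6 lower and 2 higher. Of 11 neuroectoderm genes 5 were lower and 1 higher. Sox1, an early neural gene, was the higher one, at 1.03 and 0.997 against 11.2 and 7.25 (log2 difference 3.19 ± 0.54, adjusted p = 0.0029). Of 12 fibroblast genes 4 were lower and 0 higher, with Thy1 at 7.59 and 8.24 against 0.528 and 0.655 (log2 difference -3.73 ± 0.31, adjusted p = 7.0e-05), and the list summed to 75.2 and 88.8 CPM in wild type and 25.1 and 30.7 in Dux KO. Without 1 library 1 to 2 fibroblast genes (2 without wild-type library a, 1 otherwise) and 1 to 3 neuroectoderm genes (1 without Dux KO line 1, 3 otherwise) were lower. Of 16 germline genes 1 was lower (Sycp1) and 1 higher (Ddx4), and of 11 primitive streak genes 0 and 2 (Mesp2 and Tbx6), beside 14.5% lower and 15.6% higher over all genes. Sycp1 and Ddx4 lost their calls with each of the 4 libraries left out, and Ddx4 also with DESeq2 (adjusted p = 0.0562) and RLE scaling (0.0564). Neither Mesp2 nor Tbx6 was called without wild-type library a or without wild-type library b, and Mesp2 was not called without Dux KO line 1. The summed levels of the trophectoderm list, 2006 and 2157 against 1661 and 1818 CPM, and of the primitive endoderm list, 712 and 791 against 789 and 816, rest mostly on abundant genes that stem cells share, and the part of other cell types in the results above was not tested.

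**Figure D5:**
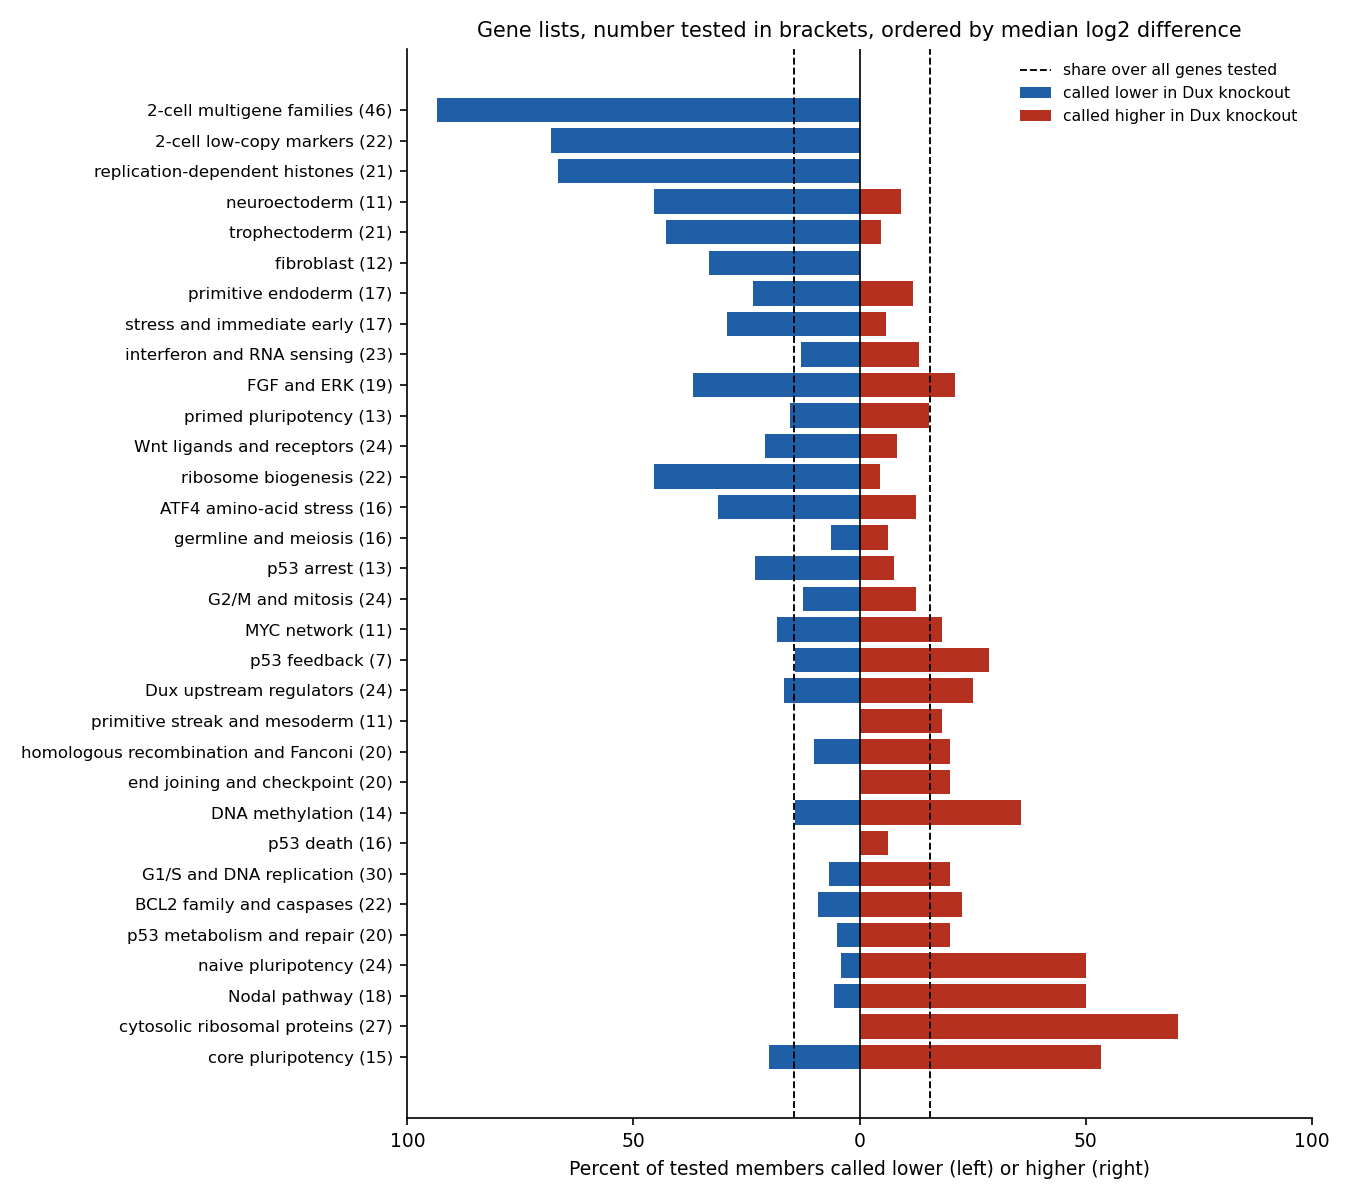
Share of tested members called lower (blue, left) and higher (red, right) in Dux KO under doxorubicin for 32 gene lists, ordered by median log2 difference, with the number tested in brackets. Dashed lines mark the shares over all genes, 14.5% lower and 15.6% higher, and the 2-cell, histone, pluripotency, Nodal and ribosomal protein lists reach far beyond them.

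The genes furthest above wild type in Dux KO were of several kinds, and their folds were much smaller than those of the lower genes. By the rule used for extremes (protein-coding, at least 2 CPM in the higher group, overlapping no other gene), they were Aldoart1, Aurkc, Slamf8, Zfp773, Inha, Qprt, Camk2n1, Kirrel2, Tdgf1 and Ndrg2. Aldoart1, an aldolase retrogene that resembles Aldoa and may share its reads, had 0.515 and 0.465 CPM in wild type against 17.8 and 23.3 in Dux KO, 41.9-fold higher (log2 difference 5.38 ± 0.39, adjusted p = 4.1e-05). Its vehicle values were 4.51 and 3.07 in wild type and 44.7 in Dux KO. Slamf8, a surface receptor, had 0.193 and 0.0665 against 3.64 and 3.84 (log2 difference 4.80 ± 0.88, adjusted p = 0.004), and Qprt, of NAD synthesis, had 0.386 and 0.598 against 9.40 and 6.99 (log2 difference 4.05 ± 0.32, adjusted p = 5.5e-05). Inha, the inhibin alpha subunit, had 0.193 and 0.133 against 3.36 and 2.62 (log2 difference 4.17 ± 0.66, adjusted p = 0.002). Zfp773 had 1.38 and 0.864 against 26.3 and 15.04 (log2 difference 4.19 ± 0.72, adjusted p = 0.003), and Camk2n1, an inhibitor of CaM kinase II, 1.99 and 1.26 against 28.8 and 18.2 (log2 difference 3.85 ± 0.31, adjusted p = 6.6e-05). Aurkc, the meiotic Aurora kinase, had 0.386 and 0.0665 against 9.62 and 3.90, with both groups spread widely, and its call was lost without wild-type library b (adjusted p = 0.0565). In 9 of these 10 genes the vehicle level of Dux KO was above that of both wild-type vehicle libraries, Slamf8 being the exception at 1.48 CPM against 1.79 and 3.55.

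The authors' deposited table holds their own comparison of the same 4 libraries, with 6196 genes lower and 6042 higher in Dux KO at their adjusted p under 0.05. Of the 8618 genes called here, 8265 were also called in the authors' deposited table, all 8265 with the same sign.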

How the data were processed

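Poly(A)-selected RNA of mouse embryonic stem cells was sequenced in 12 libraries of 6 groups. The authors deposited whole-number counts per Ensembl gene and FPKM values for the same libraries. The authors' deposited table also gives log2 fold changes and adjusted p-values of their own comparisons. TopHat2, DESeq, DESeq2 and build mm10 are named in the submitters' processing notes. The counting tool, its annotation and its use of strand are not given in the sources used here. Of 54532 gene identifiers, 54409 were found in GENCODE M21 (GRCm38), which gave names and positions.

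The count column labelled as the second Dux KO vehicle library equals the drug-treated library of Dux KO line 1 in 54532 of 54532 genes, so this 1 column was left out and 11 were used. Another 6 FPKM columns hold group averages and were not used. Dividing count by FPKM gives a length for each gene: in 9935 genes with at least 200 counts it was proportional, to within 1%, to the full span for 98.239% and to the exons for 0.745%. The FPKM values were thus scaled by full spans. This does not show whether intron reads were counted, which was not tested. Odd values made up 26.36% to 33.4% of the counts that reach 500, so 1 count is not always 1 independent read. Intervals and floors therefore cover counting error only, and are tighter than they should be.

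The 11 libraries were fitted together as 6 group means in edgeR 4.0.16 (TMM scaling, filterByExpr with a minimum count of 10, quasi-likelihood test, 5 residual degrees of freedom), which kept 28643 genes. The contrast was Dux KO minus wild type under doxorubicin. P-values were adjusted over all genes kept by the Benjamini-Hochberg method and called under 0.05, and each ± is a standard error from that fit. Groups with 0 counts were set at 3 counts per library for lower bounds, and with 1 to 3 counts an exact binomial interval of the ratio is given. The fitting script was tested on simulated data. Alternatives were DESeq2 1.42.0, RLE scaling, no filter, limma 3.58.1 on log2(FPKM + 1) and log2(FPKM + 0.1) with a minimum of 1 FPKM in 2 libraries or none, a fit of the 4 libraries alone, and leaving out each library.

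Genes named in the text are a panel of 20, the 10 furthest lower and the 10 furthest higher genes, and, per list, up to 4 called members with the largest log2 difference and the uncalled member with the highest level. The panel, lists and rules were chosen with earlier results of these data known. Others (the neighbours of Duxf3, the runs along chromosomes, further copies of 2-cell families, and the hypoxia and glycolysis group) were chosen after their values were seen.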

Additional observations from a re-analysis of the deposited data

Results flagged for a closer look

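For 5 genes of the panel the difference between Dux KO and wild type under doxorubicin was itself different from the difference under vehicle, by the interaction term of the same edgeR fit with p-values adjusted over all genes. The vehicle side of Dux KO is 1 library, which is assumed to vary like the others. The interaction was -7.31 (log2, adjusted p = 0.0017) for Arg2, which had 0.155 and 0.374 CPM in vehicle wild type and 0.272 in vehicle Dux KO. It was 3.31 (adjusted p = 0.0024) for Tdgf1, with 362 and 446 CPM and 568 under vehicle. Sox2 had an interaction of 1.81 (adjusted p = 0.018), Pou5f1 of 1.28 (adjusted p = 0.012) and Esrrb of 1.12 (adjusted p = 0.031). Esrrb had 474 and 419 CPM in vehicle wild type and 659 in vehicle Dux KO. In all 4 pluripotency genes both treated Dux KO lines were above both treated wild-type libraries. This adds nothing to their calls, since the groups did not overlap in any of the 8618 called genes. For genes with 0 counts in Dux KO, such as Zscan4c and Duxf3, the interaction could not be fitted to a usable error, and no value is given.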

How the results depend on the processing

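No paired analysis was possible because the wild-type columns carry no replicate number and the knockout numbers name lines. The 4162 lower and 4456 higher genes became 7263 and 7023 with the 4 drug-treated libraries fitted alone, and the lower count was 1674 with limma on log2(FPKM + 1) and 1551 with log2(FPKM + 0.1), where the filter left 14522 genes. Leaving out 1 library gave 1680 to 2490 lower and 2044 to 2620 higher genes, in fits with a group of 1 library that is assumed to vary like the rest. Other settings kept both counts within 1.5 times. Of 171 named genes checked, 137 were called. Of these, 75 stayed called with each of the 4 libraries left out, 62 lost the call at least once, 30 lost it under another setting (24 of them with limma on unfiltered FPKM), and 0 turned direction. The genes that turned direction were all uncalled (log2 differences given). Trp53 was at -0.0834 with DESeq2, -0.0847 with RLE scaling and -0.000101 with the 4 libraries alone. Cdk1 was at -0.0555 and -0.0568, Max at -0.055 and -0.0563, and Rrm2 at -0.00044 and -0.00177 with DESeq2 and RLE scaling. Ccng1 was at 0.0297 with log2(FPKM + 0.1) and 0.0296 with log2(FPKM + 1), filtered or not. Trim28 was at 0.111, 0.104 and, without a count filter, 0.0384. Parp1 was at 0.0795, 0.0721 and 0.00552 under the same settings. With 1 library left out, Trim43c ranged from -0.0428 to 0.969, Nodal from -0.292 to 0.0373, Trim28 from -0.083 to 0.0902 and Parp1 from -0.0732 to 0.0204. The cause was not tested. Depth limits genes under about 1 CPM: 3 counts are 0.0965 CPM in wild-type library a and 0.0546 CPM in Dux KO line 2.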

Other observations

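Genes of hypoxia and glycolysis formed a group put together after its values were seen, so its counts support nothing and are given as description. Of 30 such genes 26 were higher (86.7%, beside 15.6% over all genes) and 1 lower in treated Dux KO. Their median was 1.29 (log2), and their summed level was 3336 and 3045 CPM in wild type against 8279 and 8465. Vehicle cultures summed to 9843 and 10773 in wild type and 12609.7 in Dux KO. Vegfa, the vessel growth factor, had 28.6 and 24.4 CPM against 218 and 190.4 (log2 difference 2.94 ± 0.20, adjusted p = 3.3e-05, edgeR). Slc16a3, which exports lactate, had 26.2 and 15.1 against 201 and 208, and Bnip3, a mitophagy receptor, had 10.8 and 9.64 against 107 and 89.9. The enzymes Ldha, Pgk1 and Tpi1 had 287 and 228 against 904 and 886, 46.4 and 37.2 against 204 and 184, and 110.2 and 88.5 against 549.9 and 491 CPM. P4ha2, a collagen prolyl hydroxylase, was the 1 lower gene, at 250.3 and 281 against 61.03 and 68.01 CPM, and Car9, a carbonic anhydrase, was under 1 CPM in all 4 libraries. With 1 library left out, 21 or 22 of the 30 were higher.

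Genes outside the lists were also far apart between the groups. The Dux-like genes Duxbl1, Duxbl2 and Duxbl3, named after their values were seen, had 12.97 and 14.4, 13.996 and 17.3, and 18.5 and 16.5 CPM in wild type and 0.944 and 0.583, 1.51 and 0.837, and 0.981 and 0.947 in Dux KO (adjusted p = 8.4e-05, 7.8e-04 and 3.9e-05, edgeR). Calhm3, an ion channel gene, had 116 and 138 CPM against 0.0755 and 0, and Nrsn1, a neuronal vesicle gene, had 69.98 and 94.8 against 0.0755 and 0.

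By annotated class, 867 of 2706 processed pseudogenes were higher in Dux KO (32.04%, against 15.6% of all genes) and 153 of 437 unprocessed pseudogenes were lower (35.01%, against 14.5%). On the X chromosome 228 of 1070 tested genes were lower (21.31%), and on chromosome 17 321 of 1301 were higher (24.67%). Processed pseudogenes can share reads with the genes they were copied from, and the part of that in their count was not tested.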
